A study of Homo sapiens with 9 samples.

Results

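The peaks described here are those of the ARID subunits of SWI/SNF, a complex that remodels chromatin, on human chromosome 19 whose nearest gene, as the authors assigned it, carried a ZNF number. The rule used only chromosome and gene name, and found 166 of 34575 ARID peaks. They were 90 of 12852 ARID1A peaks, 13 of 8728 ARID1B peaks and 63 of 12995 ARID2 peaks. They named 96 genes, of which 95 matched 1 of the 246 protein-coding ZNF genes on this chromosome (Gencode v44 placed on GRCh37, the assembly also called hg19). The remaining name, ZNF833P, is not annotated as protein-coding there.

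Chromatin came from HepG2, an established human line from a hepatocellular carcinoma, grown without any treatment, so every library shared 1 genotype and 1 condition. The series held 9 ChIP-seq libraries: 2 for each of ARID1A, ARID1B, ARID2 and the core subunit SNF5, and 1 input, not used here. The authors merged both replicates of an antibody before calling peaks, which left 1 list per subunit, no replicate error and no read counts. No comparison below therefore carries a test. Each share has a Wilson 95% interval that covers counting error over peaks or genes only, and a subunit, its antibody and its sequencing depth cannot be told apart. A list holds only regions past the caller's threshold, so a gene without a peak is a gene without a called peak. The liver genes ALB, APOA1, AFP and HNF4A, checked as markers, were each the nearest gene of at least 1 ARID peak.

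ZNF genes encode C2H2 zinc finger proteins, in which strings of small zinc-binding loops read DNA sequence. Chromosome 19 holds the largest human collection, laid out in tandem clusters that grew by gene duplication. Most members also carry a KRAB domain, which recruits the corepressor TRIM28 (KAP1) and, through it, histone methyltransferases that silence transposable elements and other targets. ARID1A and ARID1B are alternative subunits of the BAF form of SWI/SNF, and ARID2 belongs to the PBAF form.

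Stretches under the peaks follow for loci that carry the main patterns: overlap of all 3 ARIDs (ZNF555), the widest and the highest-scored SNF5 peak on a ZNF locus (ZNF787 and ZNF583), the widest ARID1B and ARID2 peaks (ZNF784 and ZNF564), an ARID2 peak alone (ZNF556) and an ARID1A peak alone (ZNF91). Each is the longest run, outside every annotated exon, that is covered by the most ARID lists at that locus. All are from GRCh37, on the strand of the gene, and capitals mark exact matches on either strand to the 10 motifs that were searched. Those were the GC box GGGCGG, the CCAAT box CCAAT, the ETS core CCGGAAG, the NRF1 core GCATGCGC, the YY1 core AAGATGGC, the CRE TGACGTCA, the AP-1 element TGANTCA, the E box CACGTG, the TATA element TATAAA and the ZNF143 core ACTACAA. A match is a description of the letters and not of a bound site.
ZNF555, chr19:2840981-2841032, plus strand: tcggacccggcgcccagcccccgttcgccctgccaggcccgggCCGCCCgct
ZNF787, chr19:56632741-56633035, minus strand: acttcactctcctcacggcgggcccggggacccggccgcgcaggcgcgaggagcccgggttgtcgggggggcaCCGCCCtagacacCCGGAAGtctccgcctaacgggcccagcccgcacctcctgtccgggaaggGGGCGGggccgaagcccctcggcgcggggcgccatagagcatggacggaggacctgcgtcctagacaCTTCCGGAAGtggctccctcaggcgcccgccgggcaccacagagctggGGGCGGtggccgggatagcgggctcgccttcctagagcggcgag
ZNF583, chr19:56915459-56915687, plus strand: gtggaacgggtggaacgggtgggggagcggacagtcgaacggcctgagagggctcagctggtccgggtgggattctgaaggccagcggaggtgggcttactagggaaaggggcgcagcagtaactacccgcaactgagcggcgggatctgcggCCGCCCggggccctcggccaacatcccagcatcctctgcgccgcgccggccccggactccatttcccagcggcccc
ZNF784, chr19:56135933-56136043, minus strand: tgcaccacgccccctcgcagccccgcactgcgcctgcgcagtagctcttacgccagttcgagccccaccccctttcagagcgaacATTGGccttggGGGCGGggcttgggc
ZNF564, chr19:12662357-12662507, minus strand: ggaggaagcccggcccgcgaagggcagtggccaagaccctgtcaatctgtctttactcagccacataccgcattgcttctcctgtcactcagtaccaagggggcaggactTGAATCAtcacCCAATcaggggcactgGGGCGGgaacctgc
ZNF556, chr19:2867118-2867332, plus strand: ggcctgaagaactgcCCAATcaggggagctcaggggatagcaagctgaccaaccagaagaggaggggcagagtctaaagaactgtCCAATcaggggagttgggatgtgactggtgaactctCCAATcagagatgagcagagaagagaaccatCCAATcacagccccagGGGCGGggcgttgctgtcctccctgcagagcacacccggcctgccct
ZNF91, chr19:23577920-23578126, minus strand: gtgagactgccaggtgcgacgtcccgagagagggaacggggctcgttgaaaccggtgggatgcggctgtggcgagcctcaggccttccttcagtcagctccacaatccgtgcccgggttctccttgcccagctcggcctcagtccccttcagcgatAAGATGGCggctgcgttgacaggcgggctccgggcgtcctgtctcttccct

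In the ZNF787 stretch, 3 GC boxes and 3 ETS cores lay in 295 bp, and a pair of the ETS cores overlapped in 1 palindrome. The ZNF556 stretch held 4 CCAAT boxes and 1 GC box. The ZNF91 stretch held 1 YY1 core, and the ZNF555 stretch, which all 3 lists covered, was 52 bp long with 84.6% GC.

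ARID peaks at the ZNF genes lay almost wholly at promoters. The deposited promoter class (a distance under 1000 bp from a transcription start site, TSS) held 87 of the 90 ARID1A peaks (96.7%, 90.7 to 98.9), 12 of 13 ARID1B peaks (92.3%, 66.7 to 98.6) and 56 of 63 ARID2 peaks (88.9%, 78.8 to 94.5). The same class held 72.6% of the whole ARID1A list, 37.9% of the ARID1B list and 67.0% of the ARID2 list. At other genes of chromosome 19 it held 73.0% (69.8 to 76.0), 41.1% (36.2 to 46.1) and 71.1% (67.3 to 74.6). In all 3 lists the interval of the ZNF peaks lay above that of the other chromosome 19 peaks. At ZNF genes of other chromosomes the promoter class held 86.4% (79.9 to 91.0), 49.3% (37.7 to 60.9) and 77.2% (70.6 to 82.7). For ARID1A and ARID2 those intervals overlapped the ones of chromosome 19 ZNF peaks. A high promoter share of these 2 ARIDs was therefore not particular to the ZNF genes of chromosome 19. None of the 166 peaks was in the exon class and 2, both of ARID2, were intronic. The class and the nearest gene come from the same annotation.

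Median midpoints of the promoter-class peaks lay close to the TSS, with a wide spread on both sides for ARID1B. Offsets were taken to the nearest annotated TSS of the named gene and kept within 1000 bp, which by itself holds medians near it. Signed offsets of other promoter peaks are not given. The median offset of the midpoint, negative when upstream, was -6.0 bp for ARID1A (quartiles -88.5 and 82.5 bp, 85 peaks), -9.5 bp for ARID2 (-144 and 87 bp, 54 peaks) and -23.8 bp for ARID1B (-399 and 415 bp, 12 peaks). Midpoints fell upstream in 46 of 85, 31 of 54 and 7 of 12 peaks. By the authors' unsigned distance, in the same order, the medians were 68.0, 99.0 and 398 bp, against 115, 162 and 169.5 bp over all promoter-class peaks of the 3 lists. For ARID1A and ARID2 the ZNF peaks were thus nearer to the TSS than the list as a whole, and the 12 ARID1B peaks were farther from it. At ZNF genes of other chromosomes the medians were 80 bp for ARID1A, 142 bp for ARID2 and 102 bp for ARID1B, all nearer than the list. For 4 of the 155 promoter-class peaks, 3 at ZNF763 and 1 at ZNF833P, the newer annotation placed no TSS of the named gene within 1000 bp, and these are absent from the signed offsets.

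**Figure D1:**
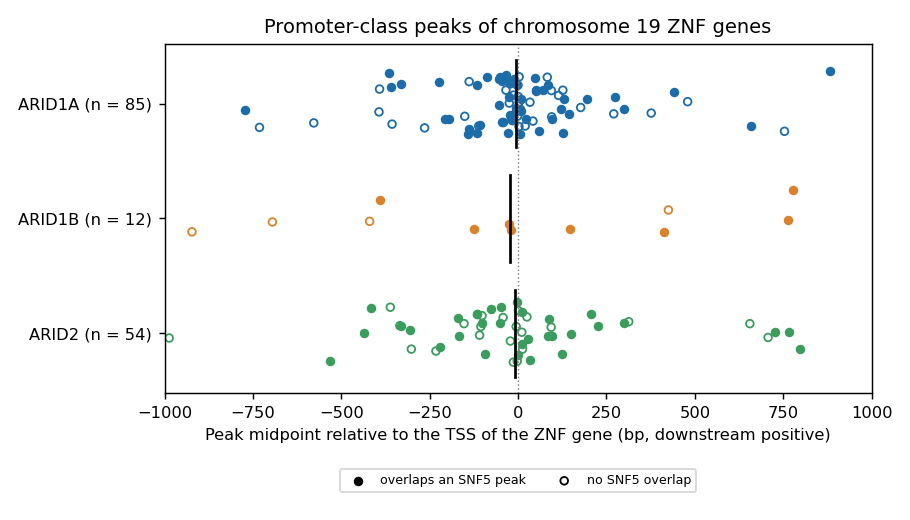
Midpoints of the promoter-class ARID peaks of chromosome 19 ZNF genes, in bp from the nearest TSS of the named gene (negative is upstream). Each point is 1 peak, filled where an SNF5 peak overlaps it, the black lines are medians (-6.0, -23.8 and -9.5 bp), and vertical spread within a row carries no value.

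Median widths of the ZNF peaks were 245 bp for ARID1A, 205 bp for ARID1B and 176 bp for ARID2, against 218, 164 and 189 bp in the whole lists. Among promoter-class peaks alone they were 242, 211.5 and 175.5 bp, against 238, 173 and 202 bp. At matched class the ZNF median was thus near that of the list for ARID1A, wider for ARID1B (12 peaks) and narrower for ARID2. The ARID1A peaks ran from 53 to 1237 bp (ZNF555), the ARID1B peaks from 52 to 518 bp (ZNF784) and the ARID2 peaks from 52 to 1001 bp (ZNF564). Of the 13 ARID1B peaks, 4 were at the narrowest width in that list, 52 bp (30.8%, against 13.6% of the list).

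The 11 peaks outside promoters came from 8 genes, led by an upstream site of ZNF77. There an ARID2 peak of 204 bp (chr19:2950420-2950623) and an ARID1A peak of 353 bp (chr19:2950506-2950858) overlapped 5550 and 5710 bp from the TSS, under an SNF5 peak with a score of 32. It was the only site outside promoters at which 2 ARIDs and SNF5 coincided. The other peaks were single: ARID1A at ZNF555 (1895 bp from the TSS) and ZNF579 (6271 bp), ARID1B at ZNF266 (20294 bp), and ARID2 at ZNF556 (1284 bp), ZNF77 (8346 bp), ZNF846 (1468 bp), ZNF833P (15815 bp), ZNF763 (1915 bp) and ZNF579 (6563 bp).

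The last coding exon of a KRAB zinc finger gene usually encodes the whole finger array, and the repeated fingers make the 3′ ends of these genes resemble one another. Over the 246 genes these exons had a median length of 1529 bp and covered 378820 bp in all. No ARID peak of any list overlapped 1 of them, and 1 SNF5 peak did, at ZNF580, which has 3 fingers and no KRAB pattern. Exon-class peaks were also few in the whole lists, at 1.88% for ARID1A, 2.36% for ARID1B and 1.89% for ARID2. Last exons of other genes were not counted, and how uniquely reads align in the finger exons was not scored. A lack of binding there is therefore not read from these counts.

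Overlap with the core subunit was next compared. SNF5 peaks overlapped 56 of the 90 ARID1A peaks (62.2%, 51.9 to 71.5), 8 of 13 ARID1B peaks (61.5%, 35.5 to 82.3) and 35 of 63 ARID2 peaks (55.6%, 43.3 to 67.2). Over the whole lists the shares were 71.3%, 62.9% and 67.2%, so the ARID1A and ARID2 values were below their background, which lay at the upper bound of their intervals. Among promoter-class peaks alone, 62.1% (51.6 to 71.5) of ARID1A and 58.9% (45.9 to 70.8) of ARID2 peaks at ZNF genes were overlapped, against 67.0% (63.1 to 70.7) and 73.9% (69.5 to 77.8) at other genes of the chromosome. The 61 SNF5 peaks on these sites had a median width of 607 bp and a median score of 20, against 719 bp and 22 for the 549 SNF5 peaks on other ARID sites of chromosome 19. The score is a whole number from the peak caller whose scale is not given in the sources used here.

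Another ARID overlapped 35 of the 90 ARID1A peaks (38.9%, 29.5 to 49.2), 9 of 13 ARID1B peaks (69.2%, 42.4 to 87.3) and 30 of 63 ARID2 peaks (47.6%, 35.8 to 59.7). The whole lists gave 47.6%, 40.1% and 46.9%. For ARID1B that comparison mixes peak classes, since few peaks of the whole list were at promoters. Among promoter-class ARID1B peaks alone, another ARID overlapped 9 of 12 at ZNF genes (interval 46.8 to 91.1%). This interval included the 65.5% of all promoter-class ARID1B peaks and the 66.2% at other genes of the chromosome. Of the 90 ARID1A peaks, 29 met an ARID2 peak (32.2%, 23.5 to 42.4) and 7 an ARID1B peak (7.78%, 3.82 to 15.2), against 40.4% and 20.9% of the whole ARID1A list. Of the 63 ARID2 peaks, 29 met an ARID1A peak (46.0%, 34.3 to 58.2) and 2 an ARID1B peak (3.17%, 0.875 to 10.9), against 41.7% and 18.1% of the whole ARID2 list. Per ARID1A or ARID2 peak, ARID1B was thus met least often, at ZNF genes as in the whole lists. With only 13 ARID1B peaks at ZNF genes, that order is limited by the size of the list. Of those 13 peaks, 8 met an ARID1A peak (61.5%, 35.5 to 82.3), against 32.1% of the whole ARID1B list. An ARID2 peak was met by 3 of them (23.1%, 8.18 to 50.3), against 27.2% of that list. These shares of pairs were not matched for peak class.

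**Figure D2:**
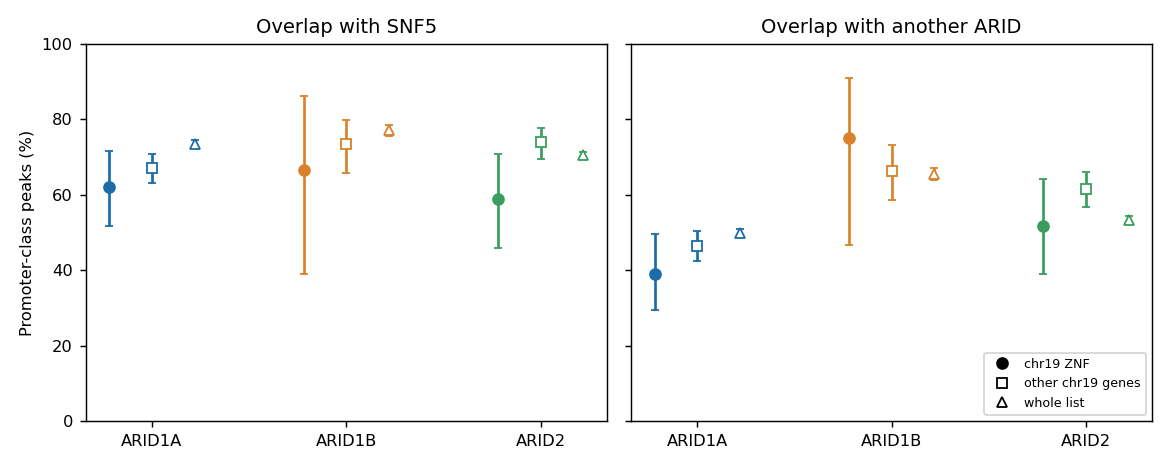
Percent of promoter-class peaks of each ARID list that an SNF5 peak (left) or a peak of another ARID (right) overlaps by at least 1 bp, with Wilson 95% intervals. Filled circles are chromosome 19 ZNF genes (87, 12 and 56 peaks), open squares other genes of the chromosome and open triangles the whole list, and the ZNF intervals overlap those of the other chromosome 19 genes in every pair, with the circles below the squares for ARID1A and ARID2.

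SNF5 was called more often where ARIDs coincided. Among promoter-class ARID1A peaks at ZNF genes, 29 of 34 with another ARID overlapped SNF5 (85.3%, 69.9 to 93.6), against 25 of 53 without one (47.2%, 34.4 to 60.3). For ARID2 these were 23 of 29 (79.3%, 61.6 to 90.2) and 10 of 27 (37.0%, 21.5 to 55.8). The whole lists showed the same order, with 87.4% and 51.1% for ARID2. Peaks with and without another ARID were not compared at matched width.

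Merged where they shared a base, the 166 peaks made 131 regions with a median width of 216 bp. Counting every ARID peak that touched them, also those the authors assigned to neighbouring genes, ARID1A alone covered 55, ARID2 alone 33 and ARID1B alone 4. ARID1A and ARID2 shared 30, ARID1A and ARID1B shared 6, ARID1B and ARID2 shared 1, and 2, at ZNF555 and ZNF576, held all 3. An SNF5 peak overlapped 26 of the 55 ARID1A regions (47.3%, 34.7 to 60.2), 11 of the 33 ARID2 regions (33.3%, 19.8 to 50.4) and 25 of the 30 regions of both (83.3%, 66.4 to 92.7). From the ZNF-assigned peaks alone, 6 of the 131 regions would have shown fewer ARIDs. Combinations over all merged ARID regions are not given here, so these counts stand without a background share. Counted by peak, 47.6% of the whole ARID1A list, 40.1% of the ARID1B list and 46.9% of the ARID2 list met another ARID. A TSS of another gene on the opposite strand lay within 1000 bp of 29 of the 131 regions (22.1%, 15.9 to 30.0), and that gene was protein-coding in 7. This was not counted for other ARID regions, so it is not read as particular to ZNF genes.

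By the authors' assignment, 39 ZNF genes were given ARID1A alone, 18 ARID2 alone and 1, ZNF576, ARID1B alone. At ZNF576 the ARID1B peak of 218 bp also overlapped ARID1A and ARID2 peaks assigned elsewhere, so all 3 ARIDs lay at its promoter. ARID1A with ARID2 was assigned to 26 genes, ARID1A with ARID1B to 7, ARID1B with ARID2 to 1 (ZNF443) and all 3 ARIDs to 3. The remaining 151 genes had no assigned ARID peak. Of the 95 genes with an assigned peak, 50 had 1 peak. The same count was not made for other genes, so it is not read as a trait of ZNF genes.

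The 3 genes assigned all 3 ARIDs differed in layout. At ZNF555, a KRAB gene with 15 fingers, the ARID1A peak chr19:2840458-2841694 contained an ARID2 peak of 65 bp (chr19:2840968-2841032) and overlapped ARID1B peaks of 205 and 127 bp, and SNF5 covered chr19:2840626-2842206 with a score of 24. At ZNF444, which encodes a SCAN-type finger protein with 4 fingers and no KRAB pattern, the 6 peaks fell in 3 groups. ARID1A and ARID2 overlapped at chr19:56652074-56652357 and again at chr19:56652585-56652748, and ARID1A met ARID1B about 1 kb further on at chr19:56653697-56654039. An SNF5 peak with a score of 20 covered the first group and reached the second, and another, also with a score of 20, covered the last. At ZNF461 the ARIDs were not at 1 site: ARID1A (112 bp) and ARID2 (187 bp) overlapped at the 5′ end of the gene under an SNF5 peak with a score of 39, while the ARID1B peak, 52 bp wide and without SNF5, lay at chr19:37128219-37128270 near a different transcript start.

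Other genes with several peaks showed the ARID1A and ARID2 pairing. ZNF579 had 3 ARID1A and 3 ARID2 peaks, of which 2 of each overlapped at the promoter under 1 SNF5 peak (score 24), and the third of each lay upstream without touching the other. ZNF787 had 2 peaks of each under the widest SNF5 peak on a ZNF gene (1819 bp, score 30), and 1 pair overlapped, an ARID2 peak of 350 bp and the ARID1A peak of 295 bp printed above. At ZNF583 an ARID1A peak of 394 bp and an ARID2 peak of 311 bp overlapped beneath the SNF5 peak with the highest score on a ZNF gene, 63, which was only 232 bp wide. At ZNF564 the widest ARID2 peak, 1001 bp, contained a 460 bp ARID1A peak, and SNF5 (score 20) covered only the downstream part of each.

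At other genes the peaks of different ARIDs did not overlap, or 1 ARID was present alone. ZNF556, which lies next to ZNF555, had 3 ARID2 peaks (208, 277 and 118 bp) and no peak of ARID1A or ARID1B, and an SNF5 peak with a score of 24 covered the 2 nearest to the TSS. ZNF763 was assigned 3 ARID2 peaks and 1 ARID1A peak in a row, none overlapping another, but in the newer annotation they lay near the start of ZNF700, upstream of ZNF763, and no ARID peak was within 1000 bp of a TSS of ZNF763. At ZNF274, whose protein binds the 3′ ends of ZNF genes and recruits the methyltransferase SETDB1, an ARID2 peak of 134 bp under SNF5 (score 18) and an ARID1A peak of 103 bp outside it did not overlap. ZNF44 had ARID1A peaks of 213 and 431 bp with an ARID1B peak of 52 bp between them, all overlapping 1 SNF5 peak of 1310 bp.

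ARID1B was the rarest of the 3 at ZNF genes. Its 13 peaks named ZNF555 (2 peaks), ZNF57, ZNF266, ZNF44, ZNF443, ZNF507, ZNF461, ZNF576, ZNF784, ZNF581, ZNF444 and ZNF460. At ZNF784 the widest of them, 518 bp, overlapped an ARID1A peak of 272 bp, and an SNF5 peak of 119 bp (score 31) touched both. At ZNF57 an ARID1B peak of 354 bp overlapped a 72 bp ARID1A peak without SNF5, and a second ARID1A peak, of 242 bp, met SNF5 (score 17) closer to the TSS. ZNF genes made up 3.35% (1.97 to 5.65) of the ARID1B peaks of chromosome 19, against 10.2% (8.37 to 12.4) of its ARID1A peaks and 9.62% (7.59 to 12.1) of its ARID2 peaks. These shares were not matched for peak class. At other genes of the chromosome the promoter class held 154 of 375 ARID1B peaks (41.1%), against 73.0% for ARID1A and 71.1% for ARID2. A list with fewer promoter peaks has less room for the ZNF peaks, which were nearly all at promoters.

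The same was counted from the genes' side, as a peak within 1000 bp of any annotated TSS. Of the 246 ZNF genes, 86 had ARID1A (35%, 29.3 to 41.1), 13 had ARID1B (5.28%, 3.11 to 8.83), 57 had ARID2 (23.2%, 18.3 to 28.8), 102 had any ARID (41.5%, 35.5 to 47.7) and 83 had SNF5 (33.7%, 28.1 to 39.9). Over 20155 protein-coding genes of the genome the shares were 37.4%, 13.8%, 32.9%, 44.7% and 44%. Over the other 1231 genes of chromosome 19 they were 40.2% (37.5 to 43.0), 12.3% (10.6 to 14.3), 31.4% (28.8 to 34.0), 45.9% (43.1 to 48.7) and 42.6% (39.9 to 45.4). The ARID1A and any-ARID shares were near the genome's, and the ARID1B, ARID2 and SNF5 shares were lower with intervals that left out the genome's share. ZNF genes on other chromosomes, 263 in all, had ARID1A at 40.3%, ARID1B at 13.3% and ARID2 at 41.8% (36 to 47.9).

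SNF5 and ARID peaks marked largely the same ZNF promoters, with SNF5 within 1000 bp of a TSS in 69 of the 102 genes that had an ARID there (67.6%, 58.1 to 75.9) and in 14 of the 144 that had none (9.72%, 5.88 to 15.7). ZNF382 was 1 of those 14, with an SNF5 peak of 346 bp and a score of 16. The same split by ARID is not given for other genes, so it is not read as particular to ZNF promoters. Over all protein-coding genes, with or without an ARID, SNF5 was near a TSS in 44%. Counted by peak and not by gene, SNF5 overlapped 73.5% of all promoter-class ARID1A peaks and 70.5% of those of ARID2.

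Proteins with and without a KRAB domain were compared, since the domain defines how most of these factors act. A KRAB pattern, scored along the translated coding sequences, was found in 213 genes and not in 33. Scores were well apart except near the limit of 0 bits, with ZNF473 at 13.3 just above it and ZNF446 at -5.5 just below. Genes with the pattern had an ARID peak within 1000 bp of a TSS in 79 of 213 cases (37.1%, 30.9 to 43.8), against 23 of 33 without it (69.7%, 52.7 to 82.6). For ARID1A the shares were 30.0% and 66.7%, for ARID1B 3.29% and 18.2%, for ARID2 18.8% and 51.5%, and for SNF5 28.6% (23 to 35) and 66.7% (49.6 to 80.2). Peaks of 2 or 3 ARIDs were assigned to 25 KRAB genes (11.7%, 8.08 to 16.8) and to 12 of the others (36.4%, 22.2 to 53.4). KRAB genes lay below the shares of all protein-coding genes given above, and genes without the pattern lay above them, though for ARID1B the interval of the latter (8.61 to 34.4) included the share of all genes.

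Promoter composition and position moved with this split, and their part in it was not tested. From 250 bp before to 50 bp after the TSS, promoters of KRAB genes had a median of 58.3% GC and 6.33 CpG dinucleotides per 100 bp, and the others 64.7% and 8.0. Of the 33 genes without the pattern, 10 lay in 1 cluster, from ZNF628 to ZNF835, where 8 of them and 1 of 6 KRAB genes had an assigned ARID peak. Without that cluster the assigned shares were 34.8% (28.6 to 41.5) for 207 KRAB genes and 60.9% (40.8 to 77.8) for 23 others, with intervals that overlap slightly.

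**Figure D3:**
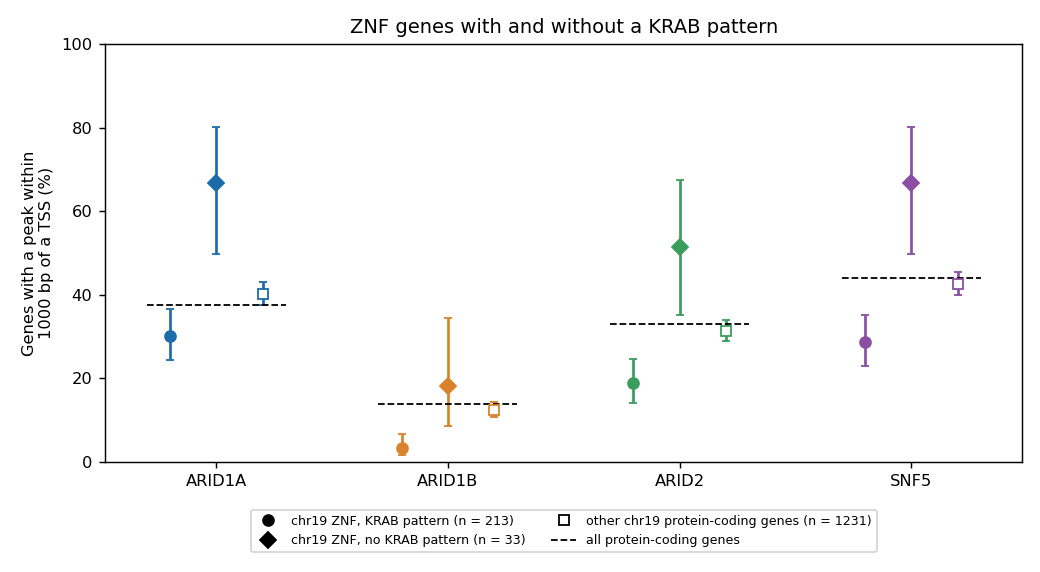
Percent of genes with a peak within 1000 bp of a TSS, for each subunit, with Wilson 95% intervals. Circles are the 213 chromosome 19 ZNF genes with a KRAB pattern, diamonds the 33 without it, squares the 1231 other protein-coding genes of the chromosome and dashed lines all protein-coding genes (37.4%, 13.8%, 32.9% and 44%), and in each column the circle lies lowest and the diamond highest.

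The number of fingers differed little between genes with and without an assigned ARID peak. Genes with an assigned ARID peak had a median of 12 fingers (quartiles 8.5 and 14.5) and those without 13 (10.0 and 15.0). Within KRAB genes the medians were again 12 and 13. The 39 genes assigned ARID1A alone had a median of 14 fingers (quartiles 11 and 17) and the 26 assigned ARID1A and ARID2 had 8.5 (7 and 12). A KRAB pattern was found in 32 of the 39 and 18 of the 26, and these medians were not compared within KRAB genes.

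Along the chromosome, the 246 genes fell into 20 clusters separated by gaps over 500 kb, and the clusters differed widely. All 5 genes of the ZNF554 to ZNF77 cluster (chr19:2819866-2944969) had an assigned ARID peak. In the ZNF653 to ZNF791 cluster (chr19:11594242-12750912) 18 of 25 genes did (72.0%, 52.4 to 85.7), and 17 of its 23 KRAB genes were among them. At the other extreme, 6 of 37 genes of the ZNF101 to ZNF254 cluster (chr19:19779605-24312770) had a peak (16.2%, 7.65 to 31.1), and 7 of 39 in the ZNF175 to ZNF331 cluster (chr19:52074536-54083523, 17.9%, 8.98 to 32.7). ARID1B was assigned to no gene in either of the latter. The intervals of the ZNF653 to ZNF791 cluster and of these 2 sparse clusters did not overlap.

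**Figure D4:**
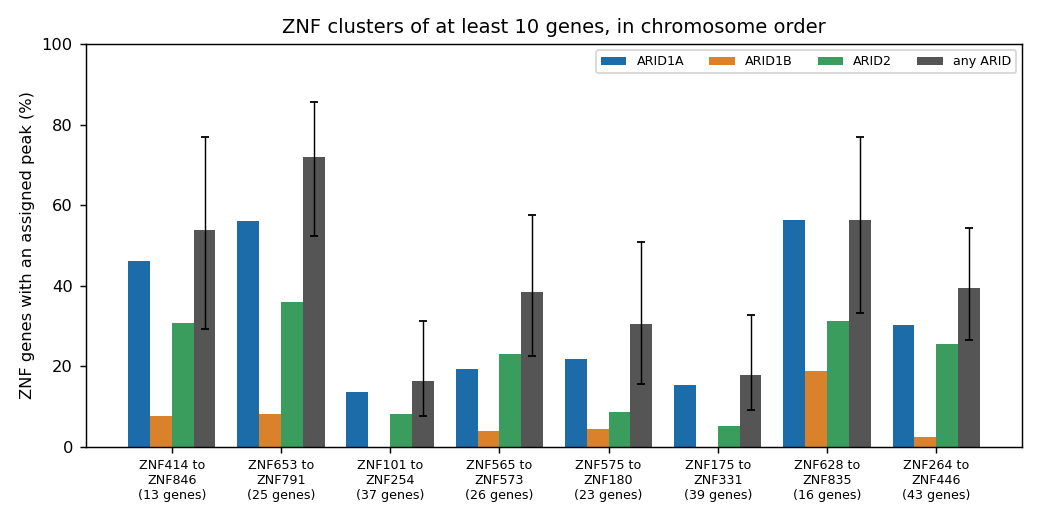
Percent of ZNF genes with an assigned peak of ARID1A, ARID1B, ARID2 or any ARID in the 8 clusters that hold at least 10 genes, in order along chromosome 19, with Wilson 95% intervals for any ARID. The highest any-ARID bar, 72.0%, is the ZNF653 to ZNF791 cluster and the lowest, 16.2%, the ZNF101 to ZNF254 cluster.

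The ZNF101 to ZNF254 cluster contains ZNF91 and ZNF93, known repressors of retrotransposons. ZNF91, with 32 fingers, had 1 ARID1A peak of 437 bp (chr19:23577920-23578356), 80 bp from the TSS and without SNF5, and ZNF93, ZNF43 and ZNF85 had no assigned peak and no SNF5 peak within 1000 bp of a TSS. The others marked in that cluster were ZNF101 and ZNF714 (ARID1A and ARID2), ZNF14 and ZNF254 (ARID1A) and ZNF66 (ARID2), and SNF5 was near a TSS of ZNF101 alone. In the ZNF575 to ZNF180 cluster, ZNF180 had an ARID1A peak of 527 bp that met SNF5 (score 17), and ZNF224 had none. ZNF331, an imprinted gene at the end of the ZNF175 to ZNF331 cluster, had an ARID1A peak of 260 bp that met SNF5 (score 15).

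Sequence composition differed between the sparse clusters. The ZNF101 to ZNF254 promoters had the lowest median CpG density of the 8 large clusters, 3.33 per 100 bp, with 55.7% GC. Those of the ZNF175 to ZNF331 cluster had 8.0 per 100 bp and 62.3% GC, above the densely marked ZNF653 to ZNF791 cluster (5.33 and 59.0%). Over all 246 genes, promoters with an ARID peak within 1000 bp had a median of 7.33 CpG per 100 bp (quartiles 5.75 and 9.33) and 61.7% GC, and those without had 6.0 (4.67 and 8.0) and 57.5%.

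**Figure D5:**
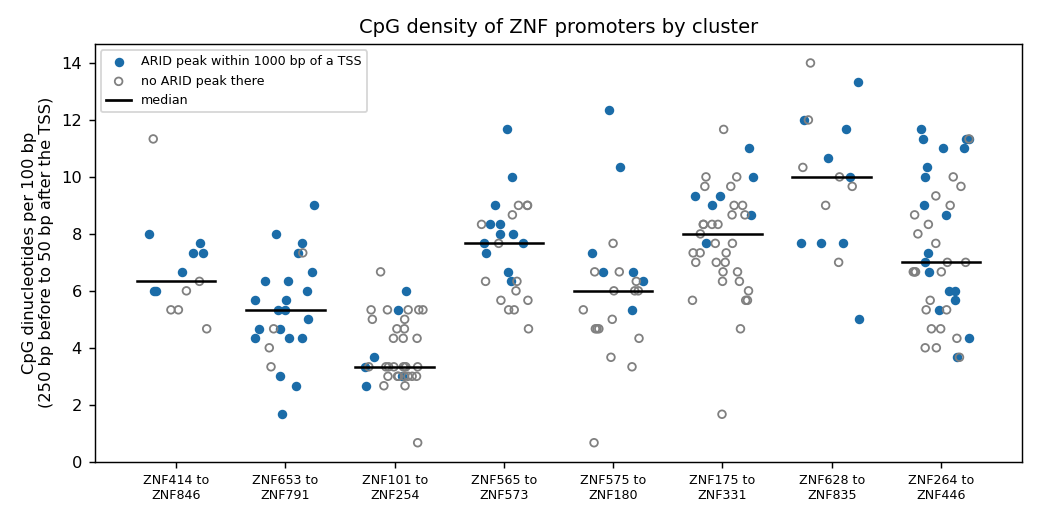
CpG dinucleotides per 100 bp in the promoter of each ZNF gene of the 8 large clusters, in order along the chromosome. Filled points have an ARID peak within 1000 bp of a TSS, open points do not, and the black lines are medians, which run from 3.33 (ZNF101 to ZNF254) to 10.0 (ZNF628 to ZNF835).

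Because these genes arose by duplication, reads from 1 copy can align to another. The share of 50-base words within 500 bp of the TSS that occur once in GRCh37, on either strand, had a lower quartile of 98.9% over the 246 genes, 95.3% in the ZNF101 to ZNF254 cluster and 96.4% in the ZNF175 to ZNF331 cluster. Among the 15 genes under 90%, 3 had an ARID peak within 1000 bp (interval 7.05 to 45.2%), and among the other 231, 99 did (42.9%, 36.6 to 49.3). Counted as a peak within 1000 bp, 6 of all 37 genes of the ZNF101 to ZNF254 cluster had an ARID (16.2%), 7 of 39 in the ZNF175 to ZNF331 cluster (17.9%) and 21 of 25 in the ZNF653 to ZNF791 cluster (84.0%). Among genes of at least 90% unique words these were 6 of 34 (17.6%, 8.35 to 33.5), 7 of 35 (interval 10.0 to 35.9%) and 20 of 24 (83.3%, 64.1 to 93.3).

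Windows of 300 bp centred on promoter-class peaks were compared in the same way. ZNF windows had medians of 64.7% GC for ARID1A, 61.5% for ARID1B and 62.7% for ARID2, against 66.7%, 62.3% and 61.3% in the whole lists. For ARID1A, the GC box was present in 62.1% of ZNF windows (63.9% of all promoter-class windows), the CCAAT box in 33.3% (26.1%), the ETS core in 19.5% (13.2%), the YY1 core in 8.05% (3.54%), the CRE in 8.05% (2.26%), the ZNF143 core in 6.9% (2.03%), the NRF1 core in 3.45% (5.46%), the E box in 4.6% (8.69%), AP-1 in 4.6% (4.41%) and TATA in 2.3% (4.23%). For ARID2 the CCAAT box was in 39.3% (29.2%), the ETS core in 17.9% (10.7%), the YY1 core in 7.14% (2.94%), the CRE in 5.36% (1.94%) and the ZNF143 core in 1.79% (2.67%). Of these, the interval left out the share of the list only for the YY1 core (3.95 to 15.7), the CRE (3.95 to 15.7) and the ZNF143 core (3.2 to 14.2) of ARID1A, on 6 or 7 windows each, and for no motif of ARID2 named here. In ARID1A promoter windows at other genes of chromosome 19 the YY1 core was in 5.01%, inside the ZNF interval. There the CRE was in 3.11% (1.98 to 4.86) and the ZNF143 core in 2.76% (1.71 to 4.44), with intervals that overlapped the ZNF ones. For ARID1B, 0 of 12 windows held a CCAAT box (interval up to 24.2%, against 26.1% of the list), 0 held an ETS core (10.0% of the list) and 2 held a CRE (16.7%, 4.7 to 44.8, against 1.54%). The 10 motifs in 3 lists were not tested.

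Related genes of the pathway were counted from lists. Of 18 C2H2 genes on chromosome 19 not named ZNF, 7 were the nearest gene of an ARID peak: 6 of ARID1A, 6 of ARID2 and none of ARID1B. By position, 8 of the 17 found in the annotation had an ARID peak within 1000 bp of a TSS (47.1%, 26.2 to 69.0), near the 44.7% of all protein-coding genes. By assignment, ZFP14, ZFP30 and ZBTB45 each had 1 ARID1A and 1 ARID2 promoter peak overlapping SNF5. ZIM2 was assigned 2 ARID1A peaks, 1 of them in the promoter class, and ZIM3 and the imprinted gene PEG3 were assigned none. A peak is assigned to 1 gene only, so a gene assigned none can still have a peak near its TSS. For ARID1A, 8 of these genes had a peak within 1000 bp of a TSS and 6 were assigned one. Of 25 genes for the KRAB corepressor machinery, on any chromosome, 22 had a peak: 18 of ARID1A, 8 of ARID1B and 16 of ARID2. By position, 21 of the 25 had an ARID peak within 1000 bp of a TSS (84.0%, 65.3 to 93.6), above that 44.7%, with ARID1B at 24.0% (11.5 to 43.4, against 13.8% of all genes). Expression was not used here, so no share among expressed genes is given. TRIM28 had 1 ARID1A and 1 ARID2 promoter peak, each overlapping SNF5. SETDB1 had 1 ARID1A peak, CBX5, which encodes HP1α, had 1 ARID1A and 1 ARID1B peak, and DNMT1 had 1 of each ARID.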

How the data were processed

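HepG2 chromatin was immunoprecipitated with antibodies to ARID1A, ARID1B, ARID2 and SNF5. Per the study's methods, bowtie2 placed the reads on hg19, duplicates were filtered, samtools merged the replicates, MACS2 called broad peaks, and the authors then joined close peaks and dropped blacklisted ones. Whether the input was the control in peak calling, and how reads with several alignments were treated, are not given in the sources used here. The deposited ARID lists give positions, a distance in bp, a class, a nearest gene (Gencode V16) and a chromatin state. The deposited SNF5 list gives positions and a score. Read counts were not used here, so depth is unknown.

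Starts are printed counted from 1. Overlap means at least 1 shared bp. TSSs, coding sequences and exons came from Gencode v44 placed on GRCh37, with ZNF66P read as ZNF66. Fingers were counted by a C2H2 pattern, and a KRAB pattern by a weight matrix of 36 residues from 175 strict matches. Python 3.11.15, pandas 2.3.3, scipy 1.17.1 and numba 0.67.0 were used. The overlap, merging and interval functions passed 5 of 5 checks on simulated data.

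Genes are named by rank (most peaks, widest peaks, all 3 ARIDs, sites outside promoters, widest or highest SNF5 peak), or by role: ZNF274, ZNF91, ZNF93, ZNF43, ZNF85, ZNF224, ZNF180, ZNF331, ZNF382 and ZNF44. Others were named after their values were seen. The members and lists were chosen with earlier results of these data known. The chromatin state was not used, for the reason given under the other observations. One further liver marker of the list is not reported here.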

Additional observations from a re-analysis of the deposited data

How the results depend on the processing

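Of 43 alternative values for 19 results, 25 stayed within the interval of the reported share or within 1.5 times the reported count, and 18 moved further. The overlap rule moved shares most. Where each peak had to cover 50% of the other, SNF5 overlapped 18.9%, 7.69% and 7.94% of the ARID1A, ARID1B and ARID2 peaks, and another ARID 12.2%, 7.69% and 15.9%. When peaks up to 1000 bp apart counted, SNF5 was at 73.3%, 84.6% and 68.3%, and another ARID at 55.6% of ARID1A and 63.5% of ARID2 peaks. With SNF5 scores of at least 20, the ARID1A share was 34.4% and the ARID2 share 36.5%. With a distance of at most 500 bp as the promoter class, the shares were 90.0%, 61.5% and 76.2%. From the ZNF-assigned peaks alone, merging those at most 1000 bp apart left 65 regions with 1 ARID in place of 98, and 2 with all 3 in place of 1. These moves follow from stricter or looser rules. The deposited single or multiple label gave 38.9%, 69.2% and 47.6%, equal to the recomputed shares. No paired analysis was possible because the replicates of each antibody were merged before peaks were called. The lists cannot show binding below the caller's threshold, and how far depth or antibody set the ARID1B counts cannot be told apart.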

Other observations

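The deposited chromatin state followed the peak class only weakly. A promoter-type state was given to 79.5% of promoter-class and 63.6% of distal ARID1A peaks, and to 75.2% and 67.8% of ARID2 peaks. ARID1A and ARID2 peaks that overlapped carried the same state in 51.4% of 5618 pairs, and at chromosome 19 ZNF genes in 15 of 29. The state was therefore left out of every comparison.

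SNF5 lay within 1000 bp of a TSS of 14 ZNF genes that had no ARID peak there. The scores of those peaks ran from 16 to 31, with the highest at ZNF552 and widths from 138 bp (ZNF765) to 1053 bp (ZNF628). ZNF28 and ZNF468 shared 1 of these peaks.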
